A study of Homo sapiens with 2 samples.

Results

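Start codon clusters are groups of crosslinked reads that the deposited tables place at the start codon of a gene. They were examined in PAR-CLIP (photoactivatable-ribonucleoside-enhanced crosslinking and immunoprecipitation) libraries of 2 related CCCH zinc finger proteins, ZC3H7A and ZC3H7B. Both carried a Flag/HA tag and were overexpressed in HEK293, an established human embryonic kidney line, after 24 h of doxycycline at 1 µg/mL. Cells were given 4-thiouridine, a photoreactive form of uridine, at 100 µM for 16 h, and proteins were crosslinked to the labelled RNA at 365 nm. There was 1 library for each protein, so the differences below have no replicate check and carry no p-value. A library from cells without a tagged protein and a measure of RNA levels were not analysed here, so more protein contact and more RNA cannot be told apart in any read count.

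All genes with at least 1 start codon cluster in either library were taken, after rows for repeats, tRNAs and other small RNA classes were left out. This gave 1100 genes of 10151 listed in either library. They carried 743 of 51817 clusters in the ZC3H7A library and 644 of 99812 clusters in the ZC3H7B library. The rows left out, 277 for ZC3H7A and 403 for ZC3H7B, held no start codon cluster. Of the 8209 genes listed for ZC3H7A, 726 (8.84%) had a start codon cluster, and of the 9163 genes listed for ZC3H7B, 613 (6.69%) had one. At the threshold, 709 genes had exactly 1 such cluster and 7483 had 0 in the ZC3H7A library, against 583 and 8550 genes in the ZC3H7B library. The genes were chosen by the number of start codon clusters in these same libraries, so those counts are given as a description.

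During initiation the small ribosomal subunit moves along the 5' UTR (5' untranslated region) until it recognises a start codon, most often AUG. Initiation factors such as EIF1 and EIF5 set how strictly that codon is chosen. Short upstream reading frames in the 5' UTR can capture ribosomes before they reach the main start codon. In PAR-CLIP, a crosslinked 4-thiouridine is read as C in place of T, so T-to-C conversion marks crosslinked RNA, and a contact can be seen only where the RNA holds a U.

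The replication-dependent histone genes had the highest share of genes with a start codon cluster of the 16 gene lists examined, and their 5' UTRs are short. The windows below show 27 bases of the transcript before the first ATG and that ATG, in capitals, for the 7 histone genes that had a start codon cluster in both libraries and an ATG in the first 50 transcribed bases with 27 bases before it. They are the sense strand, 5' to 3', from RefSeq (GRCh38.p14), and T stands for U of the RNA. The deposited tables do not place the cluster within the gene, and no annotation of start codons was used, so the first ATG is shown as a sequence feature.
HIST1H1C (chr6:26056426-26056455, minus strand): cttgtacccgagtttttgattctcaacATG
HIST1H2AI (chr6:27808183-27808212, plus strand): gaccgtatagataataggccttttgccATG
HIST1H3B (chr6:26032058-26032087, minus strand): gcaggcaagcttttctgtggttttgccATG
HIST1H4B (chr6:26027250-26027279, minus strand): ctggtttttgttgtcagctggttagacATG
HIST1H4D (chr6:26189074-26189103, minus strand): tacagatttaacagctgtggtttcaagATG
HIST1H4H (chr6:26285497-26285526, minus strand): taagttggttttagaagttgcttagtcATG
HIST4H4 (chr12:14771082-14771111, minus strand): ctgctgagtaggcgctgtgatttcagaATG

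Each of these windows held 8 to 12 T among the 27 bases before the ATG. Among the 23 histone genes with a start codon cluster, 19 had a RefSeq sequence and 10 of these had such a window (52.6%, exact Clopper-Pearson 95% interval 28.9 to 75.6%), against 2109 of 15842 RefSeq coding genes (13.3%). T made up 35.6% of the bases before the ATG in the histone windows, against 17.2% in the windows of all RefSeq coding genes. Over the first 50 transcribed bases, T made up 38.3% in the 19 histone genes, against 18.3% in all RefSeq coding genes. The high T content was therefore not particular to the bases before the ATG. Histone genes without a start codon cluster were not compared.

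Start codon clusters made up a larger share of clusters for ZC3H7A than for ZC3H7B, and the same held for the 5' UTR and the coding sequence. The share was 1.43% (1.33 to 1.54%) for ZC3H7A and 0.645% (0.596 to 0.697%) for ZC3H7B, a ratio of 2.22. This ratio lay between those of the neighbouring regions, 4.68 for the 5' UTR and 1.44 for the coding sequence. The stop codon and 3' UTR had ratios of 0.788 and 0.712, so both took a smaller share of clusters for ZC3H7A, and introns had a ratio of 1.01. Over genes listed in both libraries the ratio at the start codon was 2.12. Set against its own neighbours, the start codon took 3.25% of start codon and coding clusters together for ZC3H7A, against 2.14% for ZC3H7B. Of start codon and 5' UTR clusters together it took 28.4% for ZC3H7A, against 45.5% for ZC3H7B. Intervals here and below are exact Clopper-Pearson 95% intervals, which cover counting error only. The ZC3H7A library held 12.6 reads for each distinct read, against 1.99 in the ZC3H7B library, and the part of this difference in the number and place of clusters was not tested.

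**Figure D1:**
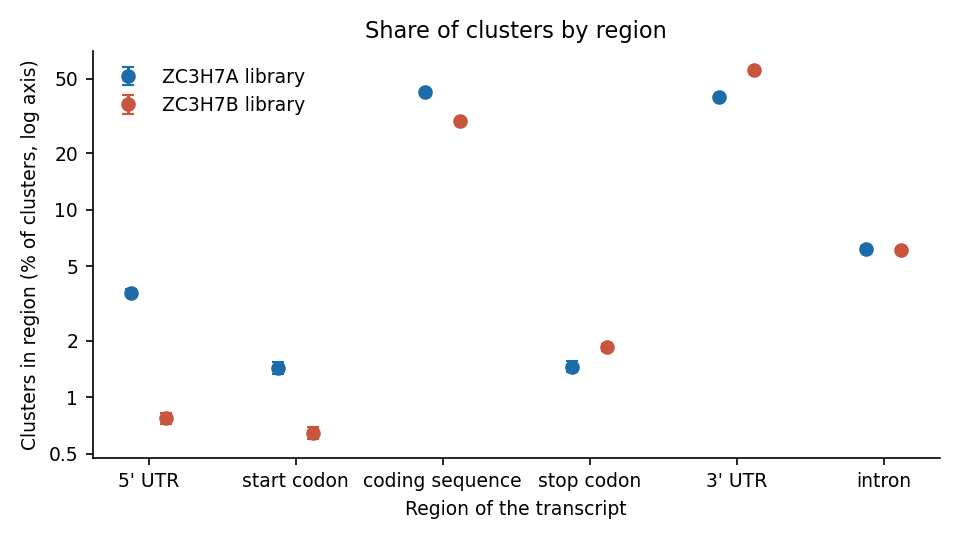
Share of all clusters (percent, log axis) in each region of the transcript, for ZC3H7A (3780104 reads in 51817 clusters) and for ZC3H7B (2409541 reads in 99812 clusters). Points are single libraries and bars are exact 95% intervals. The ZC3H7A point lies above the ZC3H7B point at the 5' UTR, start codon and coding sequence, and below it at the stop codon and 3' UTR.

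A start codon cluster was found in both libraries on 239 genes, only for ZC3H7A on 487 genes and only for ZC3H7B on 374 genes. The 239 shared genes were 32.9% of the genes with one for ZC3H7A and 39.0% of those with one for ZC3H7B. Most genes with a start codon cluster in a single library were still listed in the other, as were most genes of either library. Over all genes, 7221 were listed in both libraries, of 8209 listed for ZC3H7A and 9163 listed for ZC3H7B. Of the 487 genes, 451 had other clusters in the ZC3H7B library and 36 were not listed there. Of the 374 genes, 353 had other clusters in the ZC3H7A library and 21 were not listed there.

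Genes listed in both libraries were then split by whether they carried a start codon cluster in one of them. A start codon cluster for ZC3H7B was present on 34.6% (31.1 to 38.3%) of genes with one for ZC3H7A, against 5.40% (4.87 to 5.98%) of genes without one. The difference was present in every range of cluster number in the ZC3H7B library. Cluster number in the library that split the genes was not matched. Over all genes listed for ZC3H7A, its median was 9 with a start codon cluster and 3 without one. Among genes with a single ZC3H7B cluster, that cluster was at the start codon for 5 of 31 genes with a start codon cluster for ZC3H7A (16.1%), against 3 of 687 genes without one (0.437%). Among genes with 16 or more ZC3H7B clusters, the shares were 41.3% and 10.5%. Read the other way, a start codon cluster for ZC3H7A was present on 40.4% of genes with one for ZC3H7B, against 6.80% of genes without one. Since the choice of genes used the start codon clusters of both libraries, these shares describe the overlap and are no test of it. The libraries share the cell line and its transcripts, and RNA levels were not measured here.

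**Figure D2:**
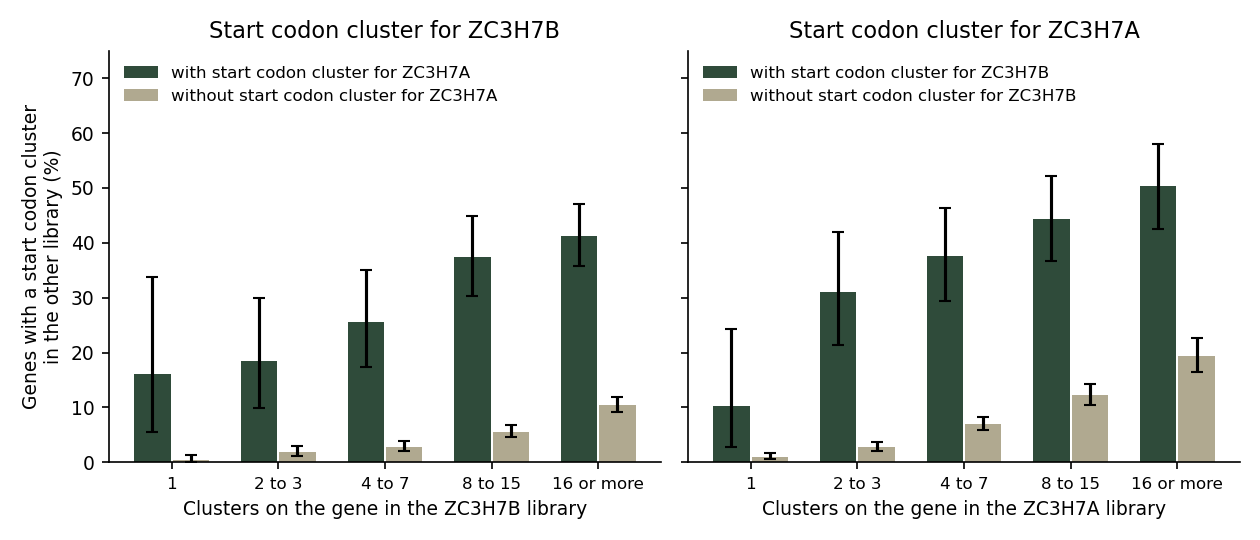
Percent of genes with a start codon cluster for ZC3H7B (left) or ZC3H7A (right), by the number of clusters on the gene in that library, for genes listed in both libraries that carry (dark) or lack (light) a start codon cluster for the other protein. Bars are shares of genes with exact 95% intervals. The dark bar is the taller in all bins of both panels, from 16.1% against 0.437% to 41.3% against 10.5% on the left, and from 10.3% against 1.03% to 50.3% against 19.4% on the right.

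Genes with a start codon cluster were among the more deeply covered genes of each library. In the ZC3H7A library they had a median of 9 clusters and 584 reads, against 3 clusters and 119 reads for genes without one. In the ZC3H7B library they had a median of 17 clusters and 376 reads, against 6 clusters and 73 reads for genes without one. The share of genes with a start codon cluster was 1.35% among genes with 1 cluster and 25.9% among genes with 16 or more in the ZC3H7A library, and 0.746% and 14.7% in the ZC3H7B library. The start codon's own share of clusters went the other way at the top of this range. It was 1.84% on genes with 2 to 3 clusters and 1.09% on genes with 16 or more for ZC3H7A, and 0.907% and 0.559% for ZC3H7B. The mean T-to-C share was 92.4% for genes with a start codon cluster, against 93.6% for the rest in the ZC3H7A library, and 89.5% against 90.1% in the ZC3H7B library.

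The genes with a start codon cluster in both libraries were the most covered of the 3 groups in the ZC3H7A library. They had a median of 939 reads in 12 clusters for ZC3H7A and 522 reads in 17 clusters for ZC3H7B. Genes with one only for ZC3H7A had 490 reads in 8 clusters for ZC3H7A and 258 reads in 12 clusters for ZC3H7B. Genes with one only for ZC3H7B had 397 reads in 8 clusters for ZC3H7A and 322.5 reads in 17 clusters for ZC3H7B.

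The deepest of the shared genes was ZNF711, a zinc finger gene, with 33979 reads in 49 clusters for ZC3H7A and 8675 reads in 30 clusters for ZC3H7B. It had 2 start codon clusters in each library. HIST1H1C, a linker histone gene, followed with 18305 reads in 3 clusters for ZC3H7A and 626 reads in 5 clusters for ZC3H7B, with 1 start codon cluster in each. CEBPG, a basic leucine zipper transcription factor, had 8491 reads in 40 clusters for ZC3H7A and 6239 reads in 22 clusters for ZC3H7B. Among these deep genes most clusters lay away from the start codon: of CEBPG's clusters, 31 lay in the 3' UTR for ZC3H7A and 13 for ZC3H7B. GRPEL2, a mitochondrial protein import cofactor, likewise had 30 clusters in the 3' UTR for ZC3H7A and 21 for ZC3H7B. YTHDF3, a reader of N6-methyladenosine, had 11661 reads for ZC3H7A and 2138 reads for ZC3H7B, with 1 start codon cluster in each library. LDHB, a lactate dehydrogenase subunit, had 11510 and USP1, a deubiquitinase, had 9863 reads for ZC3H7A, against 1930 and 2812 reads for ZC3H7B. SLC38A2, an amino acid transporter, was the lowest of the top 10 genes by its ratio, with 5059 reads for ZC3H7A and 6005 reads for ZC3H7B. The other 2 of the 10, the RNA helicase gene DDX21 and the zinc finger gene ZNF529, had 8429 and 10581 reads for ZC3H7A, against 2770 and 2207 reads for ZC3H7B.

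At least 2 start codon clusters were found on 17 genes for ZC3H7A and on 30 genes for ZC3H7B, 40 genes in all. On 7 genes this was so in both libraries, namely AMD1, EIF4A2, FDFT1, KLHL9, MTHFD2, NAB1 and ZNF711. AMD1 encodes S-adenosylmethionine decarboxylase of polyamine synthesis, and its mRNA has a known polyamine-responsive upstream reading frame. It had 2 start codon clusters of 25 clusters (3769 reads) for ZC3H7A and 2 of 26 clusters (3429 reads) for ZC3H7B. EIF4A2, an RNA helicase of initiation, had 2 of 15 clusters (5083 reads) for ZC3H7A and 2 of 17 clusters (2362 reads) for ZC3H7B. MTHFD2, a mitochondrial folate enzyme, had 2 of 20 clusters (2792 reads) for ZC3H7A and 2 of 32 clusters (2876 reads) for ZC3H7B. In the smallest of the 7, NAB1, a corepressor of EGR transcription factors, 2 of 7 clusters (279 reads) for ZC3H7A and 2 of 15 clusters (159 reads) for ZC3H7B were at the start codon. FDFT1, the squalene synthase gene, had 1228 reads for ZC3H7A and 522 reads for ZC3H7B, and KLHL9, a cullin adaptor gene, had 3509 reads for ZC3H7A and 955 reads for ZC3H7B. C6orf62 was the gene with 3 start codon clusters, all for ZC3H7B, and it had 1 for ZC3H7A. It also had 12 clusters in the 5' UTR in each library. Whether several start codon clusters of a gene lie on 1 or on several transcripts is not recorded in the tables.

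A cluster in the 5' UTR beside the start codon is a separate measurement that did not choose the genes. In the ZC3H7A library, 205 of 726 genes with a start codon cluster also had a 5' UTR cluster (28.2%), against 1185 of 7483 genes without one (15.8%). Within genes of like cluster number this difference was small or absent. The shares were 8.89% and 9.93% at 2 to 3 clusters and 20.7% and 19.0% at 4 to 7. They were 32.1% and 27.9% at 8 to 15, and 43.1% and 43.1% at 16 or more. The intervals overlapped at each of these numbers. Here and below, genes were grouped by their total clusters. At an equal total, a gene with a start codon cluster has fewer clusters left for other regions, which was not corrected.

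In the ZC3H7B library, 119 of 613 genes with a start codon cluster also had a 5' UTR cluster (19.4%), against 383 of 8550 genes without one (4.48%). Here the difference was present at all 4 ranges of cluster number. The shares were 10.8% (6.51 to 16.5%) against 5.38% (4.39 to 6.52%) at 8 to 15 clusters, and 28.5% (23.7 to 33.7%) against 10.7% (9.37 to 12.2%) at 16 or more. At 2 to 3 clusters the intervals overlapped, with 2 of 35 genes against 29 of 1545, and the same was true at 4 to 7 clusters, with 5 of 69 genes against 43 of 1675. Within the highest range the genes with a start codon cluster had a median of 28 clusters, against 23 for the rest, so cluster number was not fully matched there.

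**Figure D3:**
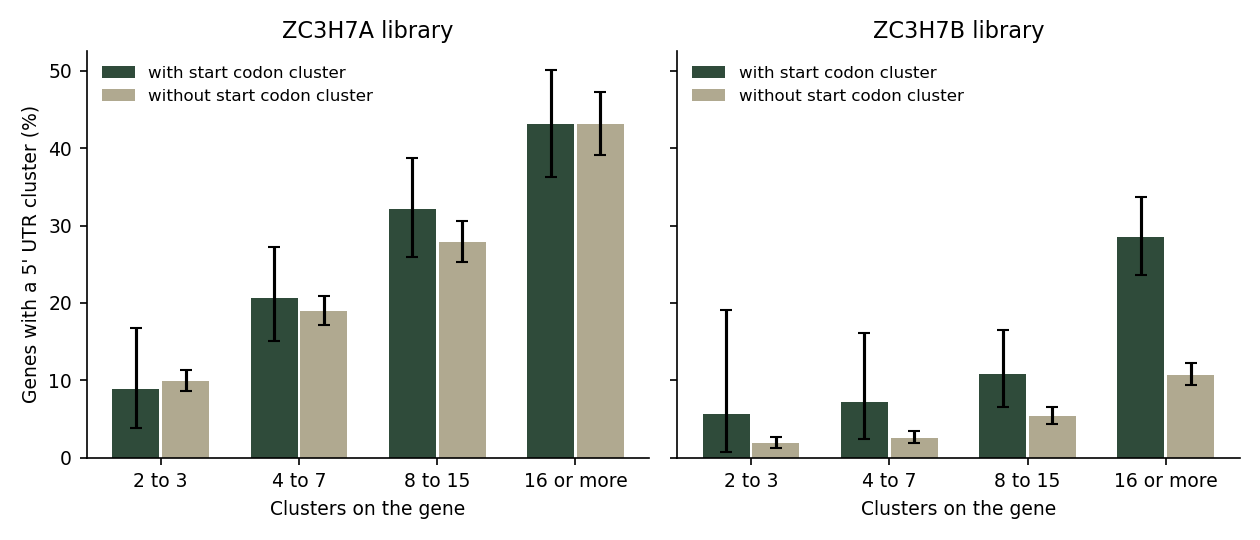
Percent of genes with at least 1 cluster in the 5' UTR, by number of clusters on the gene, for genes with (dark) and without (light) a start codon cluster, in the ZC3H7A library (left) and the ZC3H7B library (right). Bars are shares of genes with exact 95% intervals. On the left the intervals overlap in every bin, with 43.1% and 43.1% in the last, and on the right the dark bar is taller, with 28.5% against 10.7% in the last bin.

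The stop codon was compared in the same way, also by total clusters. A stop codon cluster was present on 22.3% of genes with a start codon cluster, against 7.40% of genes without one for ZC3H7A, and on 41.9% against 17.0% for ZC3H7B. At 16 or more clusters the shares were 35.4% (28.9 to 42.3%) against 22.2% (19.0 to 25.8%) for ZC3H7A and 52.4% (46.9 to 57.9%) against 35.2% (33.1 to 37.4%) for ZC3H7B. Genes with a start codon cluster had a median of 23 clusters in that range, against 21 for the rest, for ZC3H7A and 28 against 23 for ZC3H7B. At 8 to 15 clusters the shares were 26.0% against 14.9% for ZC3H7A and 36.5% against 22.4% for ZC3H7B, and the intervals did not overlap. They overlapped at 4 to 7 clusters in both libraries, with 12.5% against 7.97% for ZC3H7A and 21.7% against 14.7% for ZC3H7B. At 2 to 3 clusters they overlapped for ZC3H7A, with 10% against 4.24%, and did not for ZC3H7B, with 22.9% against 5.57%. The remaining clusters of these genes were also placed differently for ZC3H7B. Without the start codon clusters, 38.0% of their clusters lay in the coding sequence, against 28.6% on the other genes, and 47.3% in the 3' UTR, against 57.4%. For ZC3H7A the same shares were 45.0% against 43.0% in the coding sequence and 40.0% against 40.4% in the 3' UTR.

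The part of the gene's 5' end near the transcript start was also compared by its letters. In the first 50 transcribed bases, T made up 21.1% on average in the 202 coding genes with a start codon cluster in both libraries and 19.3% in the 918 with one in either, against 17.2% in the 6738 listed genes without one and 18.3% in all 15842 RefSeq coding genes. An ATG on the sense strand lay in these 50 bases for 33.2% (26.7 to 40.1%) of the genes with a cluster in both libraries, against 32.5% (31.4 to 33.6%) of listed genes without one. A transcript start with C and then 4 pyrimidines, the form of the TOP element of translation factor and ribosomal protein mRNAs, was present in 8.42% (4.98 to 13.1%), against 5.58% (5.04 to 6.16%), and these intervals overlap. Whether the T content bears on which start codon clusters could be seen was not tested.

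On genes with a single cluster, that cluster's own reads and conversion could be read. A start codon cluster was the only cluster on 28 genes for ZC3H7A, with 7 to 639 reads and a median of 36.5, and on 12 genes for ZC3H7B, with 5 to 162 reads and a median of 11.5. Single coding clusters had medians of 25 reads for ZC3H7A and 7 reads for ZC3H7B. All reads were converted in 22 of the 28 start codon clusters for ZC3H7A (78.6%, 59.0 to 91.7%) and in 4 of the 12 for ZC3H7B (33.3%, 9.92 to 65.1%). Among single coding clusters this share was 82.2% for ZC3H7A and 63.8% (58.8 to 68.6%) for ZC3H7B, and the interval for the 12 genes overlaps it.

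HIST1H2BC, a gene for histone H2B, had its only cluster at the start codon in both libraries, with 639 reads (20 distinct) for ZC3H7A and 30 reads (13 distinct) for ZC3H7B, all converted. The same was true of H3F3C, an H3 histone gene, with 169 reads for ZC3H7A and 12 reads for ZC3H7B, of which a fraction of 1 and 0.833 were converted. HIST1H2AI, a gene for histone H2A, had a single cluster of 162 reads for ZC3H7B, and 1 start codon cluster of 3 clusters (336 reads) for ZC3H7A. PARK7, the gene of the redox protein DJ-1, had a single cluster of 21 reads for ZC3H7B, and 1 start codon cluster of 4 clusters (167 reads) for ZC3H7A. SF3B5, a subunit of the U2 snRNP, had a single start codon cluster of 96 reads for ZC3H7A, whereas its single cluster of 6 reads for ZC3H7B lay in the 3' UTR. C15orf39 had a single start codon cluster of 65 reads from 2 distinct reads for ZC3H7A, and 4 clusters for ZC3H7B with 0 at the start codon. U2AF1L4, a paralog of a splicing factor subunit, had 122 reads in a single cluster for ZC3H7A and was not listed for ZC3H7B. SH3BGR with 37 reads and the deubiquitinase gene USP40 with 16 reads were listed for ZC3H7B alone, and the fraction converted was 0.514 for SH3BGR and 1 for USP40.

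Histone genes carried start codon clusters on 22 of 32 listed genes for ZC3H7A (68.8%, 50.0 to 83.9%) and on 10 of 24 for ZC3H7B (41.7%, 22.1 to 63.4%), against 8.84% and 6.69% of all genes. They had few clusters, with a median of 3 for ZC3H7A and 2 for ZC3H7B. Of all histone clusters, 22 of 101 lay at the start codon for ZC3H7A (21.8%, 14.2 to 31.1%) and 10 of 69 for ZC3H7B (14.5%, 7.17 to 25.04%). Over all genes the start codon took 1.43% and 0.645% of clusters, as given above. The stop codon was likewise above its share in all genes. It held 14 of the 101 histone clusters for ZC3H7A (13.9%, 7.79 to 22.2%) and 9 of the 69 for ZC3H7B (13.0%, 6.14 to 23.3%), against 1.46% and 1.85% of the clusters of all genes. The 5' UTR held 3 of the 101 histone clusters for ZC3H7A and 4 of the 69 for ZC3H7B. Histone mRNAs have short untranslated regions and a short coding sequence, and no correction for length was made.

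The histone genes with a start codon cluster had more reads for ZC3H7A throughout. Of the 20 compared, 19 were more than 2-fold higher for ZC3H7A and 0 were more than 2-fold higher for ZC3H7B, on a scale where the median gene has a log2 ratio of 0. Of all genes compared, 26% and 25.6% were. The median log2 ratio of ZC3H7A over ZC3H7B was 3.07. Of the 23 histone genes with a start codon cluster, 22 had one for ZC3H7A and 10 had one for ZC3H7B. Most were thus chosen through the library with more reads, so these ratios are not independent of the choice. HIST1H3B had 4331 reads for ZC3H7A and 126 reads for ZC3H7B, a log2 ratio of 4.61 (4.35 to 4.88), which was -0.074 on the number of clusters. HIST1H1C, with the reads given above, had a log2 ratio of 4.38. HIST1H4H had 3376 reads for ZC3H7A and 320 reads for ZC3H7B, a log2 ratio of 2.91 (2.74 to 3.08). On the number of clusters the ratios of HIST1H1C and HIST1H4H were 0.19 and 0.34. On distinct reads they were 3.46 and 2.27, and that of HIST1H3B was 4.06. HIST1H4C was the histone gene with a start codon cluster for ZC3H7B alone, with 4223 reads for ZC3H7A and 968 reads for ZC3H7B. The exception to the 2-fold difference was HIST1H2AI, named after its values were seen, with a log2 ratio of 0.56. By the number of clusters in place of reads, 13 of the 20 were more than 2-fold higher for ZC3H7A, against 14.4% of all genes. By mean reads per cluster 15 were higher and 1 was lower, against 12.2% and 13.3% of all genes. Histone genes of the same family have similar coding sequences, so the assignment of reads between them is uncertain, and the same holds for H3F3C.

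**Figure D4:**
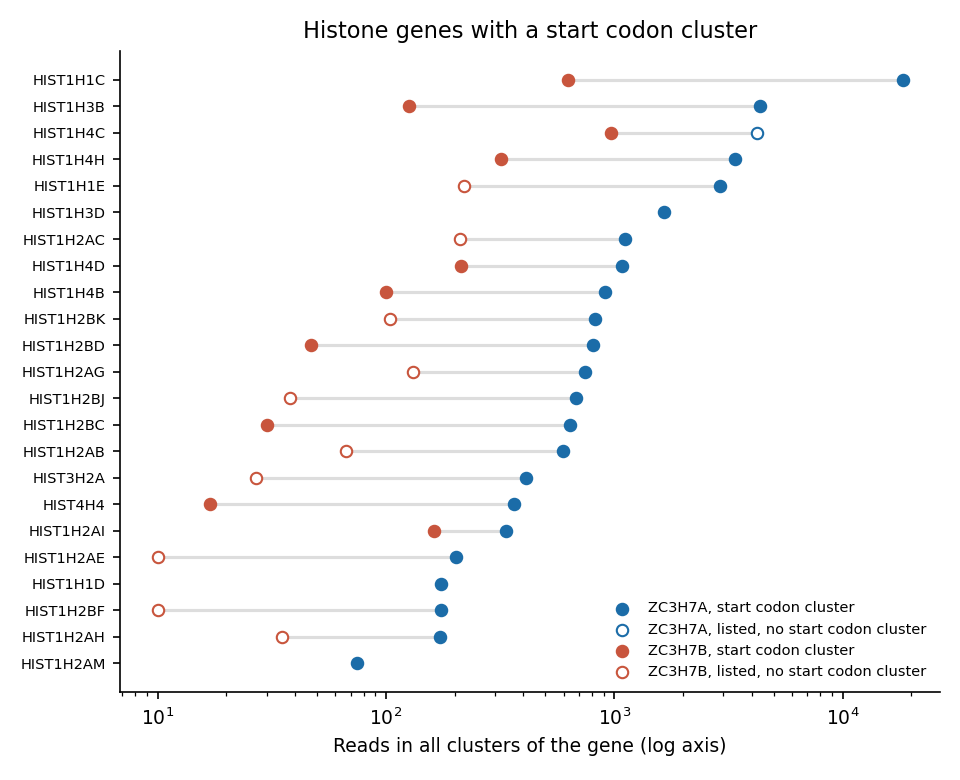
Reads in all clusters (log axis) of the 23 histone genes with a start codon cluster in either library, with ZC3H7A in blue and ZC3H7B in red. A filled point marks a gene with a start codon cluster in that library, an open point a listed gene without one, and no point a gene that was not listed. The blue point lies to the right of the red point for every gene listed in both libraries, from HIST1H2AI with 336 against 162 reads to HIST1H1C with 18305 against 626 reads.

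Genes whose main reading frame is preceded by a known regulatory upstream reading frame carried start codon clusters on 10 of 17 listed genes for ZC3H7A (58.8%, 32.9 to 81.6%) and on 6 of 16 for ZC3H7B (37.5%, 15.2 to 64.6%). These genes were well covered, with a median of 11 clusters for ZC3H7A and 19 for ZC3H7B. For comparison, all genes with 8 to 15 clusters for ZC3H7A and those with 16 or more for ZC3H7B had start codon clusters on 16.2% and 14.7%. EIF5, AMD1, AZIN1, SLC35A4 and MIEF1 had one in both libraries. MIEF1, a regulator of mitochondrial fission, had 2291 reads for ZC3H7A and 3006 reads for ZC3H7B. AZIN1, the antizyme inhibitor, had 799 reads for ZC3H7A and 1004 reads for ZC3H7B, with 1 start codon and 2 5' UTR clusters in each library. SLC35A4, whose upstream frame encodes a small protein, had 346 reads for ZC3H7A and 236 reads for ZC3H7B, with 1 start codon and 1 5' UTR cluster in each.

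The other 5 of the 10 genes, ATF4, DDIT3, PPP1R15B, MDM2 and CEBPB, had start codon clusters for ZC3H7A alone. ATF4, the main transcription factor of the integrated stress response, had 2122 reads in 11 clusters for ZC3H7A and 271 reads in 8 clusters for ZC3H7B. DDIT3, the gene of CHOP, had 240 reads in 6 clusters for ZC3H7A and 15 reads in 2 clusters for ZC3H7B. PPP1R15B, a subunit of the eIF2α phosphatase, had 5655 reads for ZC3H7A and 3390 reads for ZC3H7B, with 5 clusters in the 5' UTR for ZC3H7A and 0 for ZC3H7B. PPP1R15A, the stress-induced counterpart, had 0 start codon clusters in both libraries and ATF5 had 0 for ZC3H7A and was not listed for ZC3H7B. AZIN1, SLC35A4, ATF4, DDIT3, MDM2, CEBPB, ODC1, PPP1R15A and ATF5 were named after their values were seen. ODC1, the polyamine synthesis enzyme ornithine decarboxylase, was the gene of the list with a start codon cluster for ZC3H7B alone, with 1308 reads for ZC3H7A and 1223 reads for ZC3H7B. The median log2 ratio of the list's 11 genes with a start codon cluster was 0.06, and it was -0.10 when scaled to total reads.

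The factors that set the strictness of start codon selection were described next. EIF1, which promotes accurate start recognition, had 1 start codon cluster of 13 clusters (1553 reads) for ZC3H7A and 1 of 15 clusters (660 reads) for ZC3H7B. EIF5, the GTPase-activating factor of the same step, had 1 of 22 clusters (1637 reads) for ZC3H7A and 1 of 44 clusters (2247 reads) for ZC3H7B. Both are known to regulate their own mRNA through the context of a start codon. EIF1B, BZW1 and BZW2, the remaining genes of this list, had 0 start codon clusters in both libraries, so the count was 2 of 5 genes for each protein. Among genes with a described start other than AUG, DDX17 alone had a start codon cluster, in both libraries, of 11 genes listed for each. DDX17, an RNA helicase gene, had 2702 reads for ZC3H7A and 2709 reads for ZC3H7B.

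Other genes of the translation machinery had start codon clusters on few genes each, and 5 of the 6 intervals of these lists held the share of all genes. Initiation factor genes, whose interval for ZC3H7B lay above it, had them on 5 of 36 for ZC3H7A (13.9%, 4.67 to 29.5%) and 7 of 33 for ZC3H7B (21.2%, 8.98 to 38.9%), 4 of them in both. EIF3A, the largest subunit of the eIF3 complex, had 2 start codon clusters for ZC3H7B (872 reads) and 0 for ZC3H7A (2211 reads). Elongation and termination factor genes had them on 2 of 12 for ZC3H7A (16.7%, 2.09 to 48.4%) and 3 of 12 for ZC3H7B (25%, 5.49 to 57.2%). EIF5A, which carries hypusine and aids elongation, had 1262 reads for ZC3H7A and 107 reads for ZC3H7B, with 1 start codon cluster in each. Aminoacyl-tRNA synthetase genes had them on 4 of 19 for ZC3H7A (21.1%, 6.05 to 45.6%) and 3 of 19 for ZC3H7B (15.8%, 3.38 to 39.6%). They had a median of 9 clusters for ZC3H7A and 17 for ZC3H7B, and all genes with 8 to 15 clusters for ZC3H7A and with 16 or more for ZC3H7B had start codon clusters on 16.2% and 14.7%. TARS, the threonyl-tRNA synthetase gene, had 2 start codon clusters for ZC3H7B and 0 for ZC3H7A.

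Genes of both kinds of ribosome and of the respiratory chain had higher shares for ZC3H7A than for ZC3H7B, and the intervals overlap in each. Cytosolic ribosomal protein genes had start codon clusters on 11 of 71 for ZC3H7A (15.5%, 7.996 to 26.0%) and 5 of 66 for ZC3H7B (7.58%, 2.51 to 16.8%). Mitochondrial ribosomal protein genes had them on 17 of 67 for ZC3H7A (25.4%, 15.5 to 37.5%) and 7 of 64 for ZC3H7B (10.9%, 4.51 to 21.2%). Respiratory chain genes had them on 13 of 69 for ZC3H7A (18.8%, 10.4 to 30.1%) and 5 of 61 for ZC3H7B (8.20%, 2.72 to 18.1%). Their members with a start codon cluster had median log2 ratios of 1.67, 1.68 and 1.48 in the same order. By mean reads per cluster these were 0.50, 0.12 and 0.50. By the number of clusters the respiratory chain median was 0.93. On that measure 2 of 11 genes were more than 2-fold higher for ZC3H7A, against 14.4% of all genes compared. By reads 8 of 11 were, against 26.0% of all genes compared. In each list more members had their start codon cluster for ZC3H7A than for ZC3H7B. The ratios are therefore not independent of the choice of genes, and those of all genes in each list were not compared. RPS16 had 1432 reads for ZC3H7A and 463 reads for ZC3H7B, and UQCRB, a subunit of respiratory complex III, had 1703 reads for ZC3H7A and 427 reads for ZC3H7B, each with a start codon cluster in both libraries. MRPL44 had 1377 reads and a start codon cluster for ZC3H7A, against 240 reads and 0 start codon clusters for ZC3H7B. Many ribosomal protein genes have processed copies in the genome, so their reads are uncertain in the same way as those of histones.

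**Figure D5:**
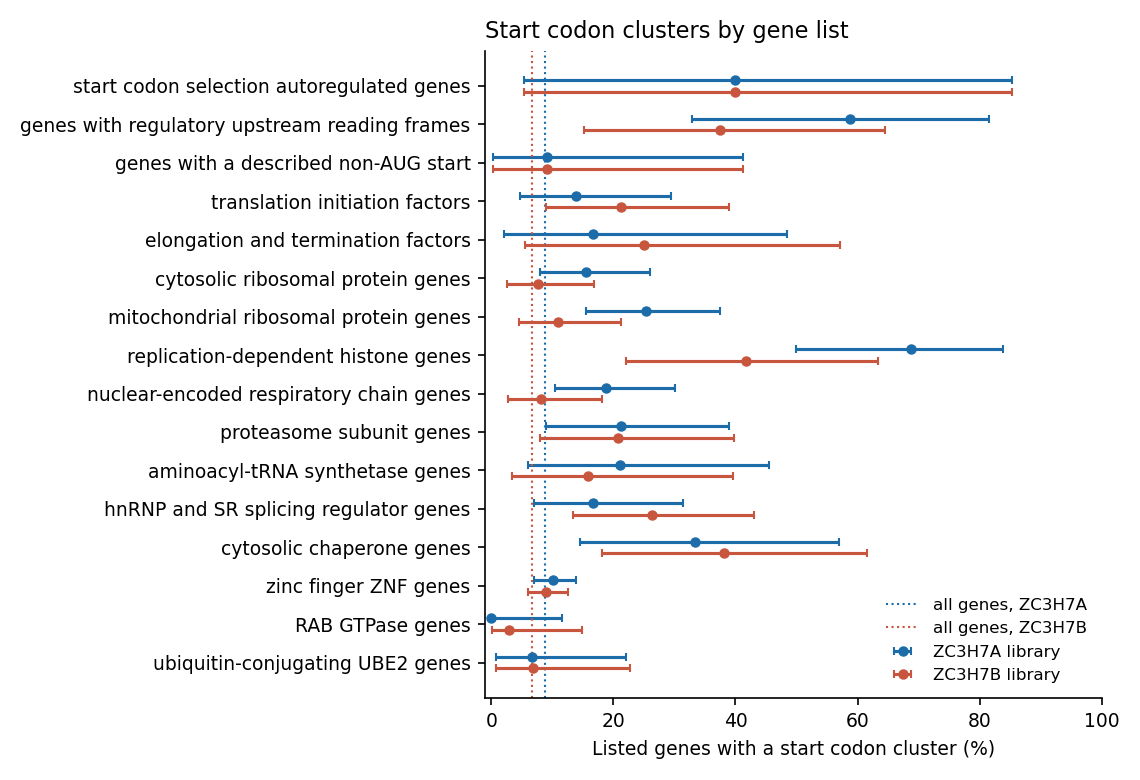
Percent of listed genes with a start codon cluster in the ZC3H7A (blue) and ZC3H7B (red) libraries, for 16 gene lists, with exact 95% intervals. Dotted lines mark all genes, 8.84% for ZC3H7A and 6.69% for ZC3H7B. Histone genes lie farthest to the right, with 68.8% and 41.7%, and RAB GTPase genes at the left, with 0% and 2.86%.

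The remaining lists lay as follows, beside shares over all genes of 8.84% for ZC3H7A and 6.69% for ZC3H7B. Proteasome subunit genes had start codon clusters on 7 of 33 for ZC3H7A (21.2%) and 6 of 29 for ZC3H7B (20.7%). Cytosolic chaperone genes had them on 7 of 21 for ZC3H7A (33.3%) and 8 of 21 for ZC3H7B (38.1%), 5 of them in both, and CCT3, a subunit of the chaperonin that folds tubulin and actin, was one of the 5. Splicing regulators of the hnRNP and SR families had them on 7 of 42 for ZC3H7A (16.7%) and 10 of 38 for ZC3H7B (26.3%). Median clusters were 15 for ZC3H7A and 19 for ZC3H7B on the chaperone genes, and 10.5 and 16 on the splicing regulators. All genes with 8 to 15 clusters for ZC3H7A and with 16 or more for ZC3H7B had start codon clusters on 16.2% and 14.7%. Zinc finger ZNF genes had them on 32 of 318 for ZC3H7A (10.1%) and 29 of 324 for ZC3H7B (8.95%), close to all genes. Ubiquitin-conjugating UBE2 genes had them on 2 of 30 for ZC3H7A (6.67%) and 2 of 29 for ZC3H7B (6.90%). RAB GTPase genes had them on 0 of 30 for ZC3H7A, which allows a share of up to 11.6%, and on 1 of 35 for ZC3H7B, the late endosomal RAB7A with 970 reads. Cluster number, coding length and read depth differ between these lists, and their part in the shares was not tested.

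Reads of a gene in one library over the other were compared for the 7171 genes with at least 20 reads summed and a row in both. Of these, 1861 (26%) were more than 2-fold higher for ZC3H7A and 1838 (25.6%) more than 2-fold higher for ZC3H7B. Of the 1042 genes with a start codon cluster that could be compared, 298 were higher for ZC3H7A (28.6%) and 169 were higher for ZC3H7B (16.2%). Their median log2 ratio was 0.23, against -0.04 for the 6129 genes without a start codon cluster. It was -0.016, against 0.0031, by mean reads per cluster, and 0.079, against -0.20, when scaled to total reads. By reads, the share higher for ZC3H7A was near that of all genes and the share higher for ZC3H7B was below it, and by mean reads per cluster both shares were near those of all genes. A gene with more reads in a library can show more clusters there, so the ratio is not independent of the choice of genes.

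By reads, the 3 groups had these ratios. Genes with one only for ZC3H7A had a median log2 ratio of 0.55, with 173 of 450 higher for ZC3H7A (38.4%) and 52 higher for ZC3H7B (11.6%). Genes with one only for ZC3H7B had a median of -0.36, with 53 of 353 higher for ZC3H7A (15.0%) and 95 higher for ZC3H7B (26.9%). Genes with one in both had a median of 0.51, with 72 of 239 higher for ZC3H7A (30.1%) and 22 higher for ZC3H7B (9.21%). Over all genes compared the shares were 26.0% and 25.6%. By mean reads per cluster these medians were close to 0, at 0.053 for genes with one only for ZC3H7A, -0.066 for those with one only for ZC3H7B and -0.017 for those with one in both. By the number of clusters the median of genes with one only for ZC3H7B was -0.17.

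Among the deepest genes of these groups, a start codon cluster in 1 library did not go with more reads there in every case. HNRNPA2B1, a splicing regulator, had a start codon cluster for ZC3H7A alone, with 25355 reads for ZC3H7A and 3127 reads for ZC3H7B. LRRC58 had one for ZC3H7A alone as well, with 12728 reads for ZC3H7A and 1526 reads for ZC3H7B and 1 of 54 clusters at the start codon. HSP90AA1, a cytosolic chaperone, had 13859 reads and a start codon cluster for ZC3H7A, against 2208 reads for ZC3H7B. KLHL15, a cullin adaptor, and GLO1, the glyoxalase, had 19420 and 7129 reads for ZC3H7A, against 7720 and 3601 reads for ZC3H7B. Of the genes with one for ZC3H7B alone, ERC1, a scaffold protein of the cell cortex, had 15224 reads in 45 clusters for ZC3H7A and 29520 reads in 105 clusters for ZC3H7B. SP1, a transcription factor, had its start codon cluster for ZC3H7B alone although it had 15405 reads in 58 clusters for ZC3H7A and 6663 reads in 41 clusters for ZC3H7B. MATR3, a nuclear matrix protein gene, had 9533 reads for ZC3H7A and 4013 reads for ZC3H7B, also with a start codon cluster for ZC3H7B alone. FEM1B, MAP1B and NUCKS1 had log2 ratios of 0.12, -0.36 and -0.26, within 2-fold, and a start codon cluster for ZC3H7B alone.

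The genes with the most extreme ratios, ZC3H7A itself among them, had their start codon cluster in the library with more reads. GABARAP, an autophagy protein gene, had 636 reads in 6 clusters for ZC3H7A and 5 reads in 1 cluster for ZC3H7B. CPNE1, a copine, had 911 reads for ZC3H7A and 10 reads for ZC3H7B. H2AFX, the gene of the histone variant H2AX, had 1063 reads for ZC3H7A and 13 reads for ZC3H7B, and KDELR1, a receptor that returns proteins to the endoplasmic reticulum, had 635 reads for ZC3H7A and 7 reads for ZC3H7B. At the other end RCAN1, a calcineurin regulator, had 9 reads in 1 cluster for ZC3H7A and 242 reads in 9 clusters for ZC3H7B. ZNF23, CARD8, SLAIN1 and PRUNE had 17 to 37 reads in 1 cluster each for ZC3H7A and 154 to 310 reads for ZC3H7B. All 5 had their start codon cluster for ZC3H7B. Most genes named here had 1 cluster in the library with fewer reads. Of all genes with 1 cluster, 1.35% for ZC3H7A and 0.746% for ZC3H7B had it at the start codon. The genes were also picked by their ratio, so the side of the start codon cluster is a description only.

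The tagged proteins' own genes were checked. ZC3H7A had 82704 reads in its own library, with 2 of 28 clusters at the start codon, against 158 reads in 11 clusters and 0 at the start codon in the ZC3H7B library. ZC3H7B had 21 clusters (1362 reads) for ZC3H7A and 35 clusters (3768 reads) in its own library, with 0 start codon clusters in both. Each gene thus had more reads in its own library, and reads of the tagged construct and of the gene cannot be told apart in the tables. Of the 5 marker genes of HEK293 examined, LIN28B had 1521 reads for ZC3H7A and 881 reads for ZC3H7B, NEFL and GATA3 were listed in both with 246 or fewer reads, and PAX2 and NEFM were not listed. None of 8 markers of liver, erythroid, leukocyte and fibroblast cells was listed in either library.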

How the data were processed

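For each library the authors deposited a table of genes. Their processing notes at submission name STAR 2.5.2a, Bowtie, cutadapt and the build hg19, with no roles or settings. What called the clusters, and what placed one at a start codon, is not given in the sources used here. Per the labels' protocols, RNA was cut with RNase T1, which cuts after G, and read over 50 bp. Per the file headers, the counts give clusters, reads and distinct reads summed over clusters, and clusters by region. The deposited fraction is the T-to-C converted share of reads, as a median over a gene's clusters. The deposited score, a sum of that fraction over clusters, gave the mean T-to-C share and, on genes with 1 cluster, that cluster's own fraction. A cluster was called fully converted within a tolerance of 1e-09. Reads outside clusters do not enter the tables. Molecular identifiers are not described, so reads can be PCR copies and intervals on reads are too narrow.

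The members and the gene lists were chosen with earlier results of these data known. Named genes were the tagged genes, genes with at least 2 start codon clusters in both libraries or at least 3 in one, the 10 deepest with one in both, the 6 deepest with one in a single library, the 5 deepest with a start codon cluster as their only cluster, the 5 highest and lowest ratios from 100 reads, and up to 4 members of each list.

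The log2 ratio is that of reads for ZC3H7A over reads for ZC3H7B, for genes with at least 20 reads summed and a row in both tables, after subtracting the median of 0.49. More than 2-fold was counted as higher. With 1 library per protein no test was run. Alternatives were distinct reads, clusters, mean reads per cluster, other read minimums and other scalings. RefSeq (GRCh38.p14) matched 9598 of 10151 symbols and 1088 of the 1100 genes with a start codon cluster, of which 919 had a sequence of the transcript start. Its build differs from that of the tables, so it served for names, biotypes and these sequences only. Tables were handled in pandas 2.3.3 and numpy 2.4.6 under Python 3.11.15, intervals came from scipy 1.17.1 and figures from matplotlib 3.10.9. TMM factors for scaling came from edgeR 4.0.16 in R 4.3.3. The ratio step was tested on simulated data.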

Additional observations from a re-analysis of the deposited data

How the results depend on the processing

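The count of genes with a start codon cluster in either or both libraries stayed within 1.5 times at a minimum of 20 reads (1080 and 235) and for genes that RefSeq annotates as protein-coding (1085 and 237), which replaced the tables' own gene class because that class describes a cluster. Requiring at least 2 start codon clusters left 40 and 7 genes. Among genes with 2 to 10 clusters, the share with a 5' UTR cluster beside the start codon cluster was 19.1% for ZC3H7A, against 15.9% of genes without one, and 7.65% for ZC3H7B, against 2.86%. The median log2 ratio of ZC3H7A over ZC3H7B of the genes with a start codon cluster was 0.23 on reads, 0.34 on clusters, -0.016 on mean reads per cluster and 0.079 scaled to total reads, which moved the median of all genes to -0.16. It lay between 0.22 and 0.28 with distinct reads, a minimum of 100 reads and TMM. On clusters, 226 of these genes were more than 2-fold higher for ZC3H7A and 106 for ZC3H7B, which is 21.7% and 10.2%, against 14.4% and 19.5% of all genes. On mean reads per cluster 116 and 127 were, which is 11.1% and 12.2%, against 12.2% and 13.3% of all genes. On reads 298 and 169 were. Among named genes beyond 2-fold on reads, the ratio changed sign on clusters for HIST1H3B (-0.074), UQCRB (-0.074) and ZC3H7B (0.19), and on mean reads per cluster for PARK7 (-0.48), RPL8 (-0.43) and ZNF711 (-0.21). Of the 38 named genes within 2-fold on reads, 16 changed sign on clusters, 17 on mean reads per cluster, 7 on distinct reads and 2 or 3 with each of the other settings. The cause was not tested. Of 51 named genes beyond 2-fold on reads, 25 were still so on clusters and 26 on mean reads per cluster. No paired analysis was possible because each protein has 1 library and no result comes from a test. The planned comparison of coding length was not run, because no table of coding lengths was used here. Of genes with 1 cluster, 1.35% for ZC3H7A and 0.746% for ZC3H7B had it at the start codon, so at that depth a gene's lack of a start codon cluster in 1 library does not show that none is there.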
